A study of Homo sapiens with 24 samples.

Results

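MYC and 39 ribosome biogenesis factors were followed at the mRNA level in SKBR3 (a human breast cancer cell line with amplified ERBB2) after therapy-induced senescence (TIS) with 6 drugs. The 40 genes were chosen by name, and all 40 were listed among the 14493 genes of the deposited count table and passed the filter on low counts in every comparison. They fall by function into the transcription factor MYC, 3 core proteins of box C/D small nucleolar ribonucleoproteins (snoRNPs), 4 proteins of box H/ACA snoRNPs, 6 nucleolar regulators, 3 subunits of RNA polymerase I, 13 factors of the small ribosomal subunit, and 10 factors of the large subunit.

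The series comprised 24 RNA-seq libraries in 8 groups of 3 replicates. The FASTIS groups (fatty acid synthesis TIS) received 250 nmol/L of ND-646, an inhibitor of acetyl-CoA carboxylase (ACC), or 250 nmol/L of TVB-3166, an inhibitor of fatty acid synthase (FASN). The other TIS groups received the DNA-damaging drugs bleomycin (10 μmol/L) or doxorubicin (10 nmol/L), the CDK4 and CDK6 inhibitor palbociclib (1 μmol/L), or the Aurora A kinase inhibitor alisertib (500 nmol/L). All treated cells were given fresh drug on day 3 and collected on day 7, and the controls were untreated proliferative cells at day-0 and untreated cells at day-7. All groups came from the same cell line. The labels do not say that replicates came from separate cultures, so that p-values measure the spread between these libraries, which may be technical.

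Ribosomes are assembled in the nucleolus. RNA polymerase I transcribes a long precursor rRNA, box C/D snoRNPs guide the methylation of its riboses and box H/ACA snoRNPs the conversion of uridines to pseudouridine, and assembly factors fold, cut, and trim the precursor on the way to the small and the large subunit. MYC, which binds the E-box sequence CACGTG together with its partner MAX, is best known for activating genes of cell growth, among them many ribosome biogenesis factors, and its gene is often amplified or highly expressed in breast cancer. Ribosome production is linked to cell growth, and proliferating cancer cells make ribosomes at a high rate.

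Counts assigned to genes ranged from 29405121 to 44316330 per library, and the members had between 282 and 53349 counts in a library, so that the spread between replicates rather than counting error set the precision. Levels are given as CPM (read counts scaled to a common library size with TMM factors over the 24 libraries), and because CPM does not account for transcript length, levels are compared between groups and not between genes. Of 12 epithelial markers of SKBR3 cells, 11 were listed, with a summed level of 14139 to 24834 CPM per library. Of 12 markers of blood, endothelial, and stromal cells, 5 were listed and the other 7 were not among the genes of the table. Their summed level was 21.4 to 26.2 CPM in untreated day-0 cells and reached 79.1 to 101 CPM in bleomycin TIS cells, and their part in the results was not tested. In ND-646 replicate 1, cytosolic ribosomal protein genes summed to 115224 CPM, against 34472 to 60796 CPM in the other 23 libraries. Relative to the other replicates of its group, the tertile of genes with the shortest exon lengths exceeded the tertile with the longest by 0.76 (log2) in this library, against -0.42 to 0.13 in the others. Numbers of called members with ND-646 are therefore also given without it, as are the values of some members. All other ND-646 values, among them most of those of further gene lists, include this library.

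The E-box was present in the promoters of many of the members. Promoter windows of 250 bases before to 50 bases after the transcription start, taken from RefSeq (GRCh38.p14), were matched for 35 of the members, and MYC, BOP1, NOP58, NOLC1, and RRP12 had none in the table. CACGTG, which reads the same on both strands, was found in a window of 16 of these 35 genes (45.7%), of 12.7% of the 10793 genes of the count table with a window, and of 8.77% of all 27305 genes with a window. Members with the sequence had a median log2 fold-change, averaged over the 6 TIS groups against day-0, of -0.41, and those without it -0.37. GNL3, called higher in 5 TIS groups against day-0 but in 0 against day-7, also held the sequence. The stretches below, from 100 bases before the start, show the 4 members with the E-box and the lowest averaged fold-changes, with CACGTG in capitals. A match describes the letters and not a bound site.
FBL, chr19:40336990-40337119 (GRCh37, minus strand): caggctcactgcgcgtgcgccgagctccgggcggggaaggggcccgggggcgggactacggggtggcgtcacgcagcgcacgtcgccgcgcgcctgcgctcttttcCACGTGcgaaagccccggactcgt
LYAR, chr4:4291719-4291848 (GRCh37, minus strand): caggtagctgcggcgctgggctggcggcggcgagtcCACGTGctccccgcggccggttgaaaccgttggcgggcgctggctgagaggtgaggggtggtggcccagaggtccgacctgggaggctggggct
NOP14, chr4:2965104-2965233 (GRCh37, minus strand): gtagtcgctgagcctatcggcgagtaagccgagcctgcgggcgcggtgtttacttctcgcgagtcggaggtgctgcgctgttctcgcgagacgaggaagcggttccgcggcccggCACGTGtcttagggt
RRP9, chr3:51975891-51976020 (GRCh37, minus strand): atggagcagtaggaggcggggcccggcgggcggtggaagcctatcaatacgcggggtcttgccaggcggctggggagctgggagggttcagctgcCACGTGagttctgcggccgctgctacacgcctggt

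Another shared feature was the presence of small nucleolar RNA genes inside the members. In the GRCh37 annotation, 9 of the 40 members (22.5%) contained at least 1 snoRNA or related RNA on their strand, namely NOP56, NOP58, DKC1, NCL, GNL3, POLR1C, WDR43, TSR1, and PPAN. Among all protein-coding genes of the count table with a position, the share was 2.76% of 12143.

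Against untreated day-0 cells, 19 to 38 of the 40 members were called lower in each TIS group, with the highest number in TVB-3166 cells. Relative to untreated day-0 cells, edgeR's quasi-likelihood test (adjusted p-value under 0.05, over all genes tested) called 38 of the 40 members lower and 1 higher in TVB-3166 TIS cells, against 27.7% of all genes lower and 27.4% higher. The numbers were 25 lower and 0 higher with ND-646 (all genes, 18.8% and 19.1%), 25 and 1 with bleomycin (25.3% and 24.1%), 23 and 1 with alisertib (19.6% and 17.7%), 21 and 2 with palbociclib (27.2% and 26%), and 19 and 2 with doxorubicin (24.8% and 23.7%). The median log2 fold-change of the members was -0.64 with TVB-3166, -0.62 with ND-646, -0.44 with bleomycin, -0.31 with alisertib, -0.29 with palbociclib, and -0.21 with doxorubicin, whereas the median of all genes was between -0.01 and 0.02. Most changes were modest, as 4 members fell at least 2-fold with a raw p-value under 0.05 in each FASTIS group (all genes, 9.29% with ND-646 and 6.75% with TVB-3166), 2 did with bleomycin (7.3%), and 0 did in the other 3 groups (2.9% with doxorubicin, 6.15% with palbociclib, and 1.44% with alisertib). The 3 drug-treated libraries were all below the 3 day-0 libraries for 39 members with TVB-3166, 33 with ND-646, 29 with alisertib, 28 with bleomycin, 26 with doxorubicin, and 25 with palbociclib, against 31.9%, 26.1%, 26%, 31.2%, 30.4%, and 31.8% of all genes. Without ND-646 replicate 1, 36 members were called lower in ND-646 cells (27.8% of all genes) and all but GNL3, NOB1, RRP12, and PPAN were among them. Without day-0 replicate 2, the number was 16 with ND-646 and 12 with doxorubicin. It was also 12 with doxorubicin without doxorubicin replicate 1 or replicate 3, and 15 with alisertib without alisertib replicate 2 or replicate 3. For these fits without day-0, doxorubicin, or alisertib libraries, the shares of all genes called are not given.

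**Figure D1:**
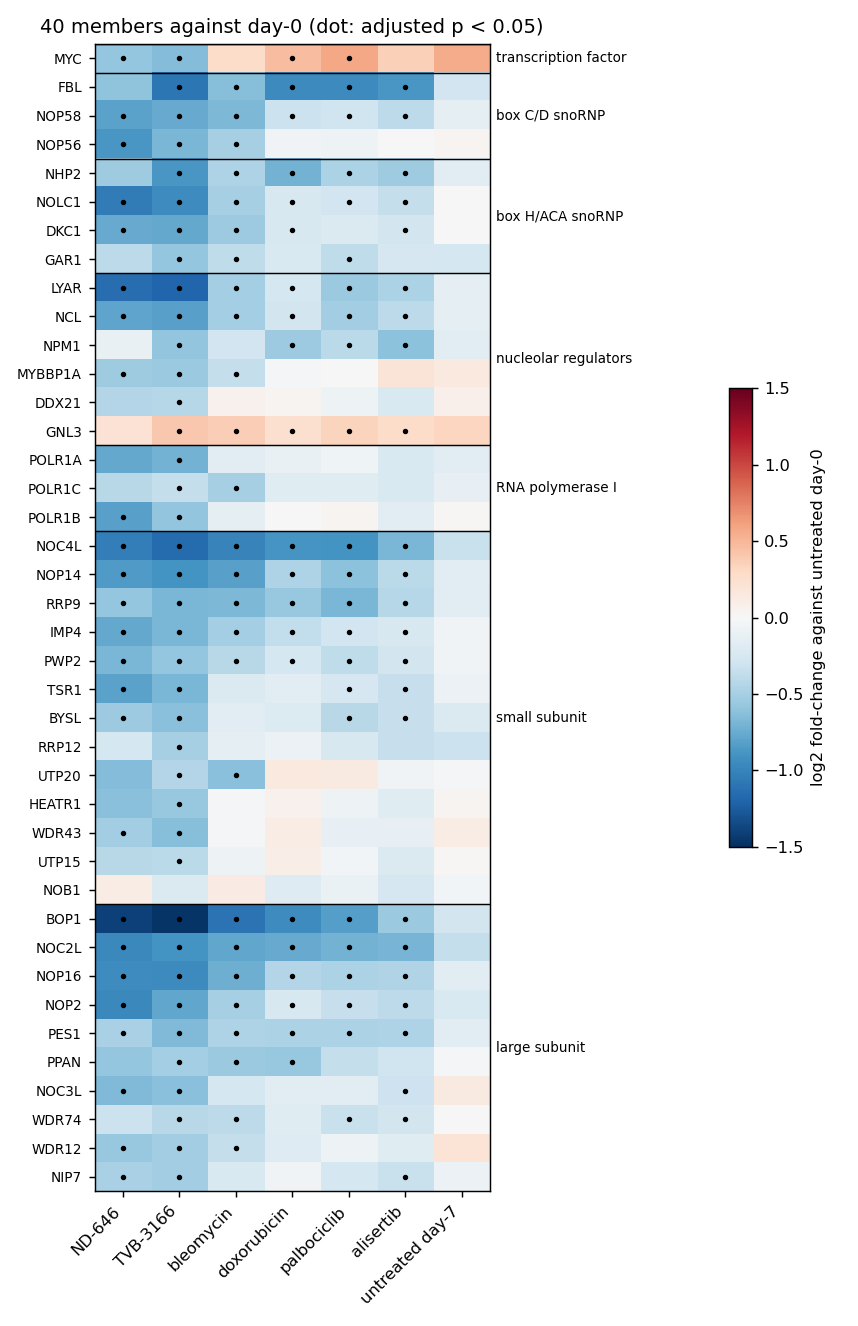
Log2 fold-change of the 40 members (y-axis, grouped by function) in each TIS group and in untreated day-7 cells against untreated day-0 cells (x-axis), with blue for lower and red for higher values and a dot for an adjusted p-value under 0.05. The TVB-3166 column has 38 dots on lower values, and the untreated day-7 column has 0 dots.

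BOP1, of the large subunit, had the lowest fold-change among the members in ND-646 (-1.40), TVB-3166 (-1.47), and bleomycin cells (-1.10), and FBL, the methyltransferase of box C/D snoRNPs, had it in doxorubicin (-0.96), palbociclib (-0.96), and alisertib cells (-0.87). By mean level over the 8 groups, 19 members were lowest in TVB-3166 and 16 in ND-646 cells, and 27 were highest in untreated day-0 and 5 in untreated day-7 cells. A call in all 6 TIS groups against day-0 was made for 14 members, against 7.79% of 13446 genes, and these were NOP58, NOLC1, NCL, LYAR, NOP14, RRP9, PWP2, NOC4L, IMP4, NOP2, NOP16, BOP1, PES1, and NOC2L. These comparisons share the same day-0 libraries. The number was 16 without ND-646 replicate 1 (11.2% of all genes), and it was 9, 6, and 10 without day-0 replicate 1, 2, and 3, respectively (6.39%, 5.18%, and 6.19%). Without doxorubicin replicate 1, 2, or 3 it was 8, 9, and 8 (7.28%, 7.47%, and 7.43%). In each of the 21 fits that left out a library, NOP14, NOC4L, NOP16, BOP1, and NOC2L were called in all 6 groups. The members made up 0.632% to 0.696% of all counts in untreated day-0 libraries, 0.421% to 0.443% with ND-646, 0.423% to 0.453% with TVB-3166, and 0.516% to 0.630% in the other 4 TIS groups. In bulk libraries of this kind, fewer cells of a type and less RNA per cell cannot be told apart.

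MYC, the transcription factor of the list, was called lower in both FASTIS groups against day-0 and in none of the other TIS groups. Its level was 121, 135, and 174 CPM in the untreated day-0 libraries and 243, 156, and 228 CPM in the untreated day-7 libraries. It was 97.0, 94.4, and 97.5 CPM with ND-646, and 94.4, 79.3, and 98.9 CPM with TVB-3166. All 6 FASTIS libraries were below all 18 other libraries. The level was 174, 160, and 185 CPM with bleomycin and 225, 172, and 188 CPM with doxorubicin. It was 246, 186, and 208 CPM with palbociclib, and 208, 157, and 187 CPM with alisertib. Relative to day-0, the log2 fold-change of MYC was -0.58 ± 0.16 (SE, adjusted p = 0.0223) with ND-646 and -0.65 ± 0.14 (adjusted p = 0.00221) with TVB-3166. MYC rose with palbociclib by 0.58 ± 0.15 (adjusted p = 0.00728) and with doxorubicin by 0.46 ± 0.15 (adjusted p = 0.0254), whereas the values of 0.28 with bleomycin (adjusted p = 0.127), 0.36 with alisertib (adjusted p = 0.0712), and 0.56 in untreated day-7 cells (adjusted p = 0.113) did not pass the threshold. A block for the replicate number, accepted in the last 2 comparisons because same-numbered libraries deviated together, gave adjusted p-values of 0.0212 for alisertib and 0.0289 for untreated day-7 cells. DESeq2 gave adjusted p-values of 0.0299 for alisertib and 0.0235 for untreated day-7 cells. For alisertib, edgeR gave 0.0434 with upper-quartile factors and 0.0431 with library totals. The ND-646 and doxorubicin calls were lost in several fits that left out a library, while the direction of the change stayed the same. With ND-646, the adjusted p-value was 0.0566 without day-0 replicate 2, 0.0915 without day-0 replicate 3, 0.0678 without ND-646 replicate 2, and 0.0587 without ND-646 replicate 3. The log2 fold-changes in these fits were -0.63, -0.42, -0.57, and -0.59, in the same order. Without ND-646 replicate 1 the adjusted p-value was 0.00933, at a log2 fold-change of -0.58. With doxorubicin the adjusted p-value was 0.0564 without day-0 replicate 1, 0.0815 without day-0 replicate 2, and 0.129 without doxorubicin replicate 1. The log2 fold-changes there were 0.34, 0.42, and 0.33, in the same order. Without day-0 replicate 3 the adjusted p-value was 0.0207 for bleomycin and 0.0114 for alisertib.

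Against untreated day-7 cells, which were cultured for as long as the treated cells, MYC was called lower in both FASTIS groups and in none of the other groups. The log2 fold-change was -1.12 ± 0.18 (adjusted p = 0.00207) with ND-646 and -1.20 ± 0.15 (adjusted p = 6.47e-05) with TVB-3166. The values were -0.26 with bleomycin, -0.17 with alisertib, -0.08 with doxorubicin, and 0.04 with palbociclib, with adjusted p-values of 0.199, 0.454, 0.702, and 0.855. Without day-7 replicate 2, the lowest of the day-7 libraries, MYC was called lower with bleomycin (-0.43, adjusted p = 0.0118) and alisertib (-0.35, adjusted p = 0.0434).

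**Figure D2:**
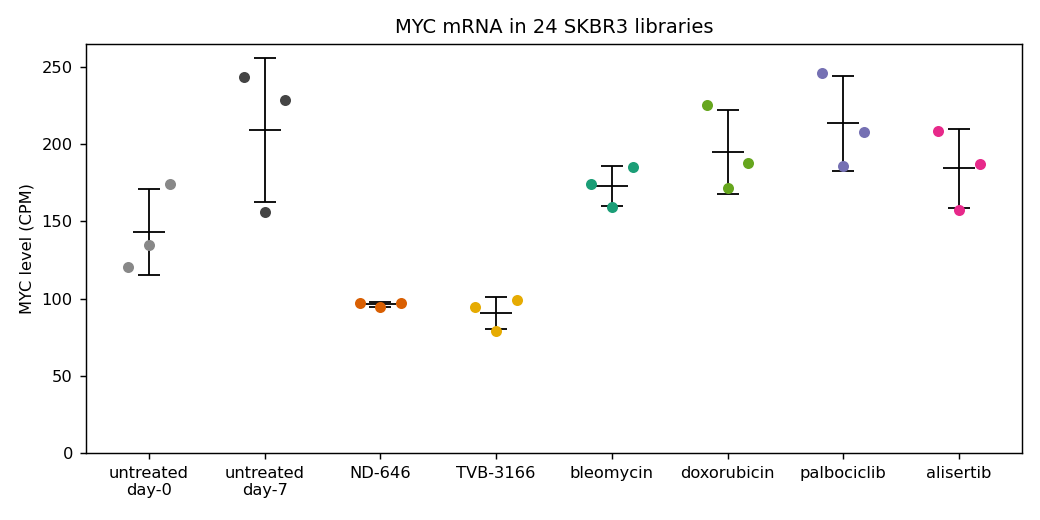
MYC level in CPM (y-axis, from 0) in each of the 24 libraries by group (x-axis), with points for libraries and bars for the mean ± SD of 3. The 6 FASTIS libraries lie between 79.3 and 98.9 CPM, below the lowest untreated library at 121 CPM.

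All 3 box C/D snoRNP proteins were called lower with TVB-3166 and bleomycin, and 2 of the 3 with each of the other drugs. FBL (fibrillarin), the ribose methyltransferase of the particle, was at 169, 156, and 141 CPM in day-0 libraries and 124, 126, and 130 CPM in day-7 libraries. Its level was 75.5, 72.4, and 71.3 CPM with TVB-3166, 101, 103, and 92.9 CPM with bleomycin, and 78.4, 89.2, and 70.2 CPM with doxorubicin. It was 84.7, 84.7, and 70.1 CPM with palbociclib, and 86.0, 84.8, and 84.1 CPM with alisertib, so that the libraries of these 5 groups did not overlap with the untreated ones. FBL fell by 1.08 ± 0.10 on the log2 scale with TVB-3166 (adjusted p = 5.56e-06) and by 0.64 to 0.96 in the other 4 groups (adjusted p = 4.27e-05 to 0.000950). With ND-646 the libraries were at 147, 84.1, and 76.5 CPM. The high value was that of replicate 1, and the fold-change of -0.61 ± 0.24 (adjusted p = 0.0742) became -0.95 (adjusted p = 0.000119) without it. NOP56, a scaffold protein of the same particle, was at 164, 208, and 204 CPM in day-0 libraries, 100, 112, and 104 CPM with ND-646, 122, 120, and 114 CPM with TVB-3166, and 142, 118, and 146 CPM with bleomycin. In these groups it fell by 0.87, 0.69, and 0.50 (adjusted p = 0.00223, 0.000291, and 0.0104), with bleomycin at adjusted p = 0.0514 without day-0 replicate 2. NOP56 overlapped with day-0 libraries in the remaining groups, at 197, 169, and 186 CPM with doxorubicin, 197, 165, and 184 CPM with palbociclib, and 209, 179, and 192 CPM with alisertib, with log2 fold-changes of -0.08 to 0.01. NOP58, its partner in the scaffold, fell in all 6 groups, by 0.30 to 0.80.

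Of the 4 box H/ACA proteins, all were called lower with TVB-3166 and bleomycin, 3 with doxorubicin, palbociclib, and alisertib each, and 2 with ND-646. NHP2, a core protein of the particle, was at 144, 164, and 138 CPM in day-0 libraries, 86.4, 78.4, and 77.3 CPM with TVB-3166, and 148, 85.7, and 77.1 CPM with ND-646, the highest of these being replicate 1. Its levels were 126, 93.6, and 103 CPM with bleomycin, 90.2, 105, and 76.1 CPM with doxorubicin, 110, 114, and 98.3 CPM with palbociclib, and 103, 104, and 101 CPM with alisertib. Every library of 5 drug groups was below every day-0 library. NHP2 fell by 0.87 ± 0.10 with TVB-3166 (adjusted p = 3.28e-05), 0.71 with doxorubicin, 0.54 with alisertib, 0.47 with palbociclib, and 0.46 with bleomycin (adjusted p = 0.0147). The bleomycin call was lost without bleomycin replicate 3 (adjusted p = 0.0659) or day-0 replicate 2 (adjusted p = 0.0754), and with ND-646 the value of -0.53 (adjusted p = 0.110) became -0.87 (adjusted p = 0.000231) without replicate 1. GAR1, another core protein, differed less, with 31.0, 29.5, and 35.2 CPM in day-0 libraries, 24.4, 27.3, and 27.8 CPM in day-7 libraries, and 19.7, 23.5, and 20.4 CPM with TVB-3166. It was at 27.7, 24.1, and 21.2 CPM with ND-646, 27.0, 22.1, and 24 CPM with bleomycin, and 26.1, 24.4, and 22.9 CPM with palbociclib. The doxorubicin and alisertib libraries, at 24.3 to 28.7 CPM, were all below the lowest day-0 library. GAR1 fell by 0.58 ± 0.12 with TVB-3166 (adjusted p = 0.00147), 0.38 with bleomycin (adjusted p = 0.0302), and 0.38 with palbociclib (adjusted p = 0.0137). The bleomycin call was lost without bleomycin replicate 2 or 3 (adjusted p = 0.0778 and 0.0981) and without day-0 replicate 2 or 3 (adjusted p = 0.0517 and 0.127), and the palbociclib call without palbociclib replicate 3 (adjusted p = 0.0592). With ND-646, GAR1 was called without replicate 1 (-0.49, adjusted p = 0.00963). DKC1, the pseudouridine synthase of these particles, was called lower in 5 of the 6 groups, and NOLC1, a chaperone of snoRNPs in the nucleolus, in all 6, with -1.05 with ND-646 and -0.95 with TVB-3166.

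Against day-0, the nucleolar regulators ranged from the strongly lower LYAR to GNL3, which was higher. LYAR, a nucleolar protein linked to cell growth, was at 26.9, 28.2, and 25.0 CPM in day-0 libraries and 25.4, 24, and 22.7 CPM in day-7 libraries. Its level was 12.2, 12.2, and 12 CPM with ND-646, and 12.2, 12, and 10.8 CPM with TVB-3166. The other groups were intermediate, at 19.9, 18.3, and 17.9 CPM with bleomycin, 21.7, 23, and 21.3 CPM with doxorubicin, 19.5, 19.1, and 16.0 CPM with palbociclib, and 19.1, 18.6, and 20.1 CPM with alisertib. LYAR fell by 1.14 ± 0.14 with ND-646 (adjusted p = 0.000481) and 1.19 ± 0.12 with TVB-3166 (adjusted p = 1.04e-05), and by 0.27 (doxorubicin) to 0.55 (palbociclib) in the other groups. The doxorubicin call (adjusted p = 0.0463) was lost without any of 5 libraries, with adjusted p-values of 0.0597 and 0.142 without day-0 replicate 1 or 2 and 0.125, 0.0588, and 0.142 without doxorubicin replicate 1, 2, or 3.

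GNL3 (nucleostemin), a nucleolar GTPase, was the only member called higher in more than 2 TIS groups against day-0. It was at 136, 141, and 153 CPM in day-0 libraries, 192, 192, and 184 CPM with TVB-3166, 173, 200, and 178 CPM with bleomycin, and 183, 181, and 176 CPM with palbociclib. Its level was 170, 159, and 176 CPM with doxorubicin, 156, 191, and 174 CPM with alisertib, and 191, 160, and 151 CPM with ND-646. All libraries of the first 5 of these drug groups were above the day-0 libraries, but so were those of untreated day-7 cells, at 157, 200, and 178 CPM. The log2 fold-change was 0.41 ± 0.09 with TVB-3166 (adjusted p = 0.00254), 0.37 with bleomycin (adjusted p = 0.0165), 0.33 with palbociclib (adjusted p = 0.00749), 0.28 with alisertib (adjusted p = 0.0494), and 0.24 with doxorubicin (adjusted p = 0.0427). In untreated day-7 cells it was 0.32 (adjusted p = 0.117), and against day-7 cells the 6 drug values lay between -0.09 and 0.09 with 0 calls. Of these calls, 3 were lost in some fits that left out a library. With bleomycin the adjusted p-value was 0.0546 without day-0 replicate 2 and 0.0516 without bleomycin replicate 2, with doxorubicin it was 0.0867, 0.116, 0.146, and 0.128 without day-0 replicates 1 and 2 and doxorubicin replicates 1 and 3, and with alisertib it was 0.0601, 0.104, 0.206, and 0.129 without day-0 replicates 1 and 2 and alisertib replicates 2 and 3. The other regulators were NCL (nucleolin), called lower in all 6 groups by 0.28 to 0.82, NPM1 (nucleophosmin), called lower in 4, MYBBP1A, called lower in 3, and the RNA helicase DDX21, called lower in TVB-3166 cells. NPM1 was at 1800, 981, and 952 CPM with ND-646, where replicate 1 again stood above the others, and at 1357, 1333, and 1306 CPM in day-0 cells. Without ND-646 replicate 1, NPM1 and DDX21 were also called lower with ND-646 (adjusted p = 0.00893 and 0.0425).

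Of the 3 RNA polymerase I subunits, all were called lower with TVB-3166 and 1 each with ND-646 and bleomycin. Without ND-646 replicate 1, all 3 were called lower with ND-646, against 27.8% of all genes. POLR1A, the largest catalytic subunit, was at 200, 156, and 140 CPM in day-0 libraries, 98.0, 93.4, and 110 CPM with TVB-3166, and 57.1, 117, and 116 CPM with ND-646. In the other 4 TIS groups its libraries were between 136 and 168 CPM, overlapping with the untreated ones. POLR1A fell by 0.71 ± 0.13 with TVB-3166 (adjusted p = 0.000883), and with ND-646 the value was -0.77 ± 0.28 (adjusted p = 0.0547), or -0.50 (adjusted p = 0.0168) without replicate 1, which was the lowest library here. With alisertib, the value of -0.23 (adjusted p = 0.175) was -0.33 (adjusted p = 0.0499) without day-0 replicate 3. POLR1B, the other catalytic subunit, was at 130, 119, and 117 CPM in day-0 libraries, 77.1, 86.9, and 78.1 CPM with TVB-3166, and 44.8, 90.6, and 73.7 CPM with ND-646, against 101 to 129 CPM in the other 4 groups. It fell by 0.59 ± 0.09 with TVB-3166 (adjusted p = 0.000319) and by 0.81 ± 0.24 with ND-646 (adjusted p = 0.0268). The latter call was lost without day-0 replicate 1, 2, or 3 (adjusted p = 0.0857, 0.0703, and 0.0647) or ND-646 replicate 3 (adjusted p = 0.0524). Without ND-646 replicate 1 the value was -0.57 ± 0.12 (adjusted p = 0.00305). POLR1C, which RNA polymerases I and III share, was called lower with TVB-3166 and bleomycin. Among these subunits, 0 were called with doxorubicin, palbociclib, or alisertib.

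**Figure D3:**
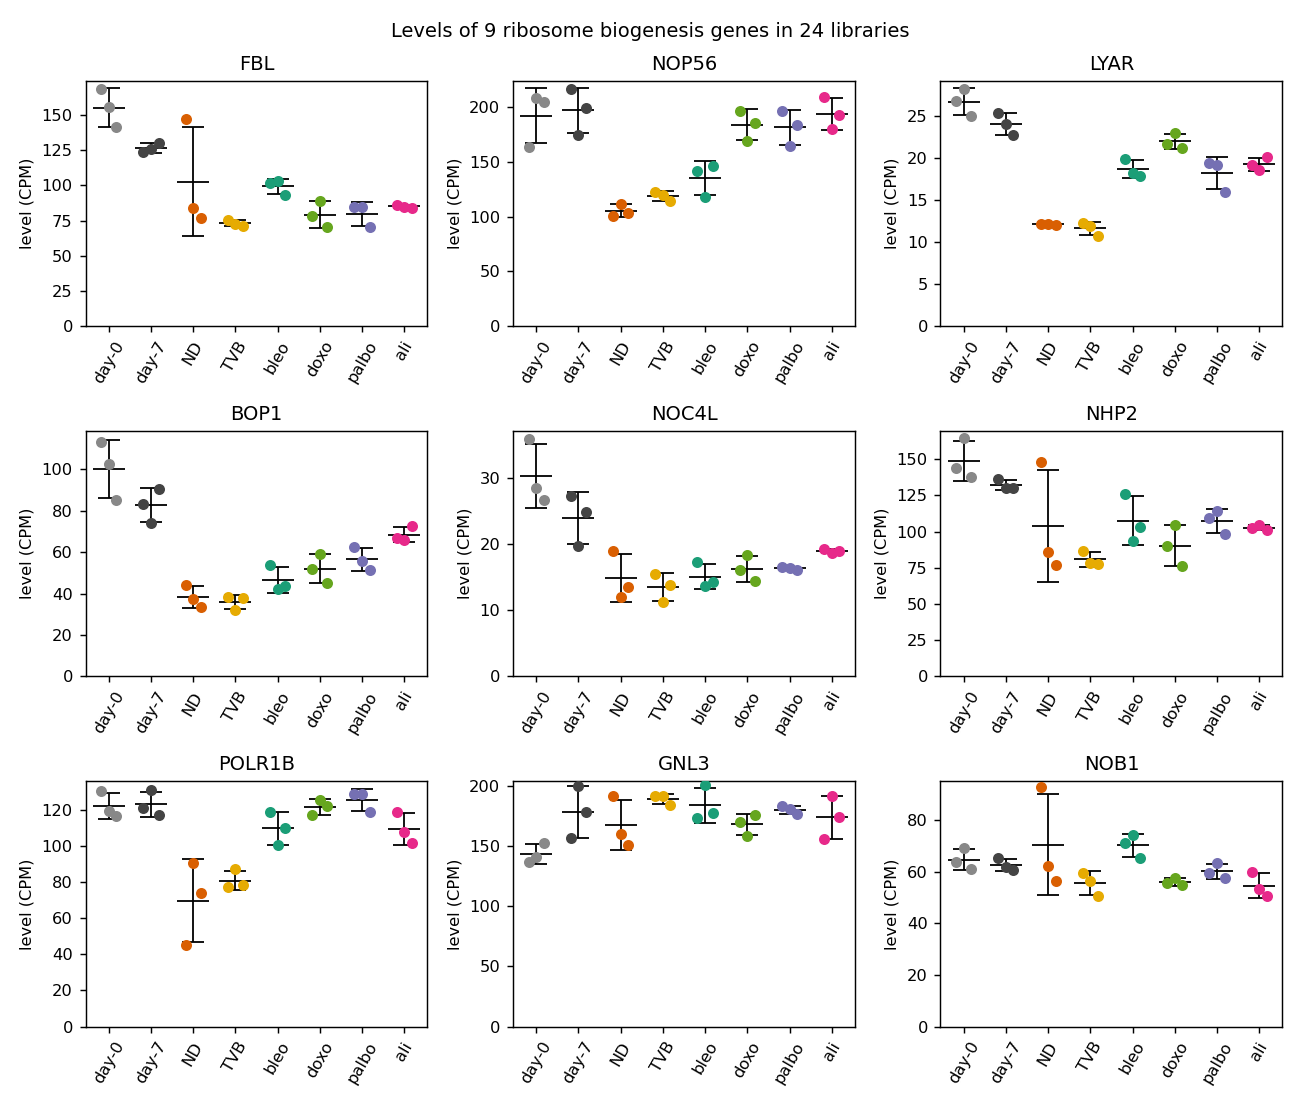
Levels in CPM (y-axes, from 0) of 9 ribosome biogenesis genes in each library by group (x-axes; ND, ND-646; TVB, TVB-3166; bleo, bleomycin; doxo, doxorubicin; palbo, palbociclib; ali, alisertib), with points for libraries and bars for the mean ± SD of 3. LYAR and POLR1B are lowest in the FASTIS groups, FBL is low in all drug groups except for ND-646 replicate 1 at 147 CPM, and NOB1 lies between 50.5 and 93.0 CPM.

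Of the 13 small-subunit factors, 12 were called lower with TVB-3166, 8 with ND-646, 7 each with palbociclib and alisertib, 6 with bleomycin, and 5 with doxorubicin. Without ND-646 replicate 1, all of these factors except NOB1 and RRP12 were called lower with ND-646. NOC4L, a nucleolar assembly factor of the small subunit, had the lowest averaged fold-change of them. It was at 35.8, 28.5, and 26.6 CPM in day-0 libraries and 27.3, 19.6, and 24.9 CPM in day-7 libraries, against 18.9, 12, and 13.5 CPM with ND-646 and 15.5, 11.3, and 13.8 CPM with TVB-3166. Its libraries were at 17.3, 13.7, and 14.3 CPM with bleomycin, 16.0, 18.3, and 14.4 CPM with doxorubicin, 16.5, 16.3, and 16.1 CPM with palbociclib, and 19.2, 18.6, and 18.9 CPM with alisertib. All 18 drug-treated libraries were below all 6 untreated libraries. Relative to day-0, NOC4L fell by 1.16 ± 0.15 with TVB-3166 (adjusted p = 8.65e-05), 1.04 ± 0.21 with ND-646, and 1.00 ± 0.15 with bleomycin, and by 0.68 to 0.89 in the other 3 groups. NOP14, which assembles with the early small-subunit precursor, RRP9, a protein of the U3 snoRNP, PWP2, and IMP4 were also called lower in all 6 groups.

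At the other end was NOB1, the endonuclease that makes the final cut of the small-subunit rRNA, which was called in none of the 12 comparisons of a drug group with untreated cells. NOB1 was at 63.9, 69.1, and 61.1 CPM in day-0 libraries, 59.6, 56.4, and 50.5 CPM with TVB-3166, and 93.0, 62.4, and 56.3 CPM with ND-646, the highest being replicate 1. It was at 71.2, 74.3, and 65.3 CPM with bleomycin and between 50.7 and 63.5 CPM with doxorubicin, palbociclib, and alisertib. The TVB-3166, doxorubicin, and alisertib libraries were below the day-0 libraries, and those of the other 3 drugs overlapped with them. Its log2 fold-changes against day-0 ranged from -0.25 ± 0.09 with alisertib (adjusted p = 0.0605) to 0.12 with ND-646 and bleomycin, and the adjusted p-value with alisertib was 0.0411 with the replicate block and 0.0470 without alisertib replicate 1. UTP20, HEATR1, WDR43, and UTP15, which act on the early precursor of the small subunit, were lower with TVB-3166, and in doxorubicin cells their log2 fold-changes were between 0.06 and 0.14.

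Of the 10 large-subunit factors, all were called lower with TVB-3166, 8 each with ND-646, bleomycin, and alisertib, and 6 each with palbociclib and doxorubicin. Without ND-646 replicate 1, all of these factors except PPAN were called lower with ND-646. BOP1, which forms a complex with PES1 and WDR12 that is needed for the large-subunit rRNA, had the lowest fold-change of the 40 genes averaged over the 6 groups. Its level was 113, 103, and 85.3 CPM in day-0 libraries, 83.4, 74.1, and 90.3 CPM in day-7 libraries, 43.9, 37.5, and 33.3 CPM with ND-646, and 38.1, 32.0, and 37.9 CPM with TVB-3166. It was 53.6, 42.1, and 43.8 CPM with bleomycin, 51.7, 59.0, and 45 CPM with doxorubicin, 62.3, 55.7, and 51.5 CPM with palbociclib, and 66.8, 65.9, and 72.5 CPM with alisertib. The drug-treated libraries did not overlap with the untreated ones, and the mean level differed 2.79-fold between day-0 and TVB-3166 cells. BOP1 fell in all 6 groups, with log2 fold-changes of -1.47 ± 0.12 with TVB-3166 (adjusted p = 3.76e-06), -1.40 ± 0.17 with ND-646 (adjusted p = 0.000370), -1.10 ± 0.14 with bleomycin (adjusted p = 0.000218), -0.94 ± 0.13 with doxorubicin, -0.83 ± 0.12 with palbociclib, and -0.56 ± 0.11 with alisertib. Its partner PES1 was also called lower in all 6 groups, and WDR12 in 3.

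NIP7, a factor of the late large-subunit precursor, had the averaged fold-change nearest to 0 in this set. It was at 58.6, 53.7, and 51.0 CPM in day-0 libraries, 43.0, 40.5, and 33.7 CPM with ND-646, and 36.6, 42.4, and 34.3 CPM with TVB-3166, which did not overlap. Its level was 54.8, 49.1, and 52.4 CPM with doxorubicin, 47.9, 41.9, and 48.7 CPM with bleomycin, 50.9, 45, and 39.8 CPM with palbociclib, and 50.2, 42.1, and 37.5 CPM with alisertib. NIP7 fell by 0.52 ± 0.11 with TVB-3166 (adjusted p = 0.00172), 0.49 ± 0.15 with ND-646 (adjusted p = 0.0319), and 0.34 ± 0.12 with alisertib (adjusted p = 0.0406). The ND-646 call was lost without ND-646 replicate 2 or 3 (adjusted p = 0.0724 and 0.124) and without day-0 replicate 1, 2, or 3 (adjusted p = 0.103, 0.0911, and 0.0651). Without ND-646 replicate 1 the value was -0.55 ± 0.13 (adjusted p = 0.00457). The alisertib call was lost without alisertib replicate 2 or 3 (adjusted p = 0.119 and 0.172) and without day-0 replicate 1 or 2 (adjusted p = 0.0843 and 0.0962), and NIP7 was called with palbociclib without palbociclib replicate 1 (adjusted p = 0.0279). NOP2, an rRNA methyltransferase, NOP16, and NOC2L were called lower in all 6 groups. PPAN overlaps P2RY11 and the readthrough gene PPAN-P2RY11 on the same strand, and its counts are uncertain. NOP2 and WDR74 each overlap another gene model on their strand.

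Between untreated day-7 and day-0 cells, edgeR called 0 of the 40 members in either direction, against 0.198% of all genes lower and 0.389% higher, and at an unadjusted p-value under 0.05 there were 7 lower and 3 higher members. DESeq2 called 1 lower and 1 higher, the higher one being MYC (adjusted p = 0.0235). The replicate block, which the libraries allowed here, gave 1 lower and 1 higher, again MYC (adjusted p = 0.0289). For the unadjusted p-value, DESeq2, and the block, the shares of all genes are not given, so that these numbers cannot be set against them. The median log2 fold-change was -0.09, and the values ranged from -0.36 for NOC2L to 0.56 for MYC, so that 0 members were at least 2-fold lower (0.33% of all genes).

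Against untreated day-7 cells, calls among the members were again mainly lower. TVB-3166 cells had 36 members lower and 0 higher (26.1% of all genes lower and 25.4% higher), ND-646 cells 23 and 0 (17.1% and 17.2%), and bleomycin cells 23 and 0 (23.2% and 22.4%). Palbociclib cells had 19 and 0 (22.9% and 22%), doxorubicin cells 15 and 1 (21.5% and 21.9%), and alisertib cells 15 and 0 (9.49% and 9.55%). The medians were -0.59, -0.62, -0.35, -0.20, -0.14, and -0.22, in the same order. RRP12, an export factor of the small subunit, was the gene called higher with doxorubicin (by 0.26 ± 0.09, adjusted p = 0.0270), and 0 members were called higher without day-7 replicate 2 or 3 or without doxorubicin replicate 1 or 2. At least 2-fold lower with a raw p-value under 0.05 were 3 members in each FASTIS group (all genes, 8.62% with ND-646 and 6.14% with TVB-3166) and 0 in the others (5.65% with bleomycin, 1.76% with doxorubicin, 4.71% with palbociclib, and 0.732% with alisertib). Leaving out ND-646 replicate 1 gave 36 lower members with ND-646 (28.3% of all genes). The number was 14 with bleomycin without day-7 replicate 3, 9 with doxorubicin without doxorubicin replicate 1, and 5, 6, and 5 with alisertib without day-7 replicate 3, alisertib replicate 2, and alisertib replicate 3, where shares of all genes are not given. DKC1, NOP16, WDR12, NOC2L, and NOC3L were called lower in all 6 drug groups, against 3.41% of 13568 genes. Of these, NOP16 and NOC2L were also called in all 6 against day-0, but the number of 5 was 0 without day-7 replicate 3 (1.24% of all genes). It was 1 without palbociclib replicate 2 or 3 (3.24% and 3.29%), 2 without doxorubicin replicate 1 or alisertib replicate 3 (3.14% and 1.8%), 3 without doxorubicin replicate 3, palbociclib replicate 1, or alisertib replicate 1 or 2 (2% to 3.33%), and 4 to 7 without any other library.

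LYAR and BOP1 were again among the lowest members in FASTIS cells. LYAR fell by 1.04 with TVB-3166 and 0.99 with ND-646, and BOP1 by 1.19 and 1.11, each with SEs of 0.10 to 0.15. With alisertib, BOP1 (-0.26, adjusted p = 0.0590) and NOC4L (-0.33, adjusted p = 0.0759) missed the threshold, and with the replicate block, which the libraries allowed, their adjusted p-values were 0.0144 and 0.0278. Without day-7 replicate 2 these values were -0.34 (adjusted p = 0.0174) and -0.46 (adjusted p = 0.00872). FBL fell with all drugs other than ND-646, by 0.34 with bleomycin (adjusted p = 0.00962, or 0.0526 without day-7 replicate 3) to 0.79 with TVB-3166, and with ND-646 its value of -0.31 (adjusted p = 0.344) was -0.66 (adjusted p = 0.000104) without replicate 1.

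**Figure D4:**
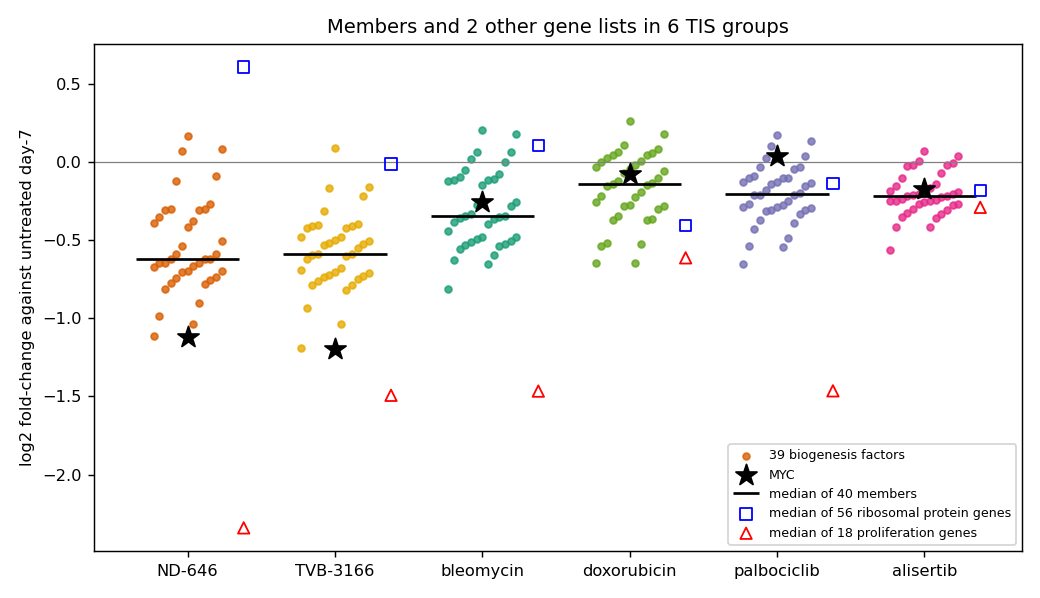
Log2 fold-change against untreated day-7 cells (y-axis) in the 6 TIS groups (x-axis) for the 39 biogenesis factors (points) and MYC (star), with a line at the median of the 40 members, a square at the median of 56 ribosomal protein genes, and a triangle at the median of 18 proliferation genes. MYC is lowest of the members in both FASTIS groups, at -1.12 and -1.20, and lies between -0.26 and 0.04 in the others.

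ND-646 and TVB-3166 cells, treated at the same dose for the same time, were also compared directly. The test called 0 members (all genes, 0.198% lower and 0.52% higher in TVB-3166 cells), and 0 members had an unadjusted p-value under 0.05. DESeq2 also called 0 lower and 0 higher members, and 0 were at least 2-fold lower (1.01% of all genes). The differences (TVB-3166 minus ND-646) ranged from -0.49 for NPM1 to 0.21 for POLR1B with a median of -0.01, and MYC differed by -0.08 ± 0.12. Without ND-646 replicate 1, 0 members were called lower and 1 higher in TVB-3166 cells, against 5% and 6.01% of all genes. The higher member was GNL3 (0.29, adjusted p = 0.0401). At an unadjusted p-value under 0.05, 3 members were lower and 1 higher, where the shares of all genes are not given.

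Between the DNA-damaging drugs, bleomycin cells had 5 members lower and 1 higher than doxorubicin cells (all genes, 5.53% and 6.54%). UTP20, a scaffold of the small-subunit precursor, had the lowest value at -0.77, and NOP56 was lower by 0.44 ± 0.10 (adjusted p = 0.0300). No member was at least 2-fold lower (2.1% of all genes). The higher gene was NOB1, by 0.33 ± 0.09 (adjusted p = 0.0432). The numbers of calls fell in fits that left out a library. Leaving out bleomycin replicate 1, 2, or 3 gave 3, 1, and 3 lower members. Leaving out doxorubicin replicate 1, 2, or 3 gave 0, 2, and 0, and the number of higher members was 0 in 5 of these 6 fits. NOP56 had adjusted p-values of 0.0600, 0.130, and 0.110 without bleomycin replicate 2, doxorubicin replicate 1, or doxorubicin replicate 3. NOB1 had adjusted p-values of 0.0682 and 0.0928 without bleomycin replicate 1 or 2, and of 0.163, 0.0745, and 0.150 without doxorubicin replicate 1, 2, or 3.

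Between palbociclib and alisertib cells, BOP1 was lower by 0.27 ± 0.08 with palbociclib (adjusted p = 0.0359) and NPM1 higher by 0.22 ± 0.07 (adjusted p = 0.0449), the only calls among the members against 14.9% of all genes lower and 13.4% higher. With the replicate block, which the libraries allowed, 4 members were lower and 6 higher. The shares of all genes called under the block are not given, so that these numbers cannot be set against them. MYC was higher by 0.22 with the block (adjusted p = 0.00461, against 0.201 without the block). No member was at least 2-fold lower (3.03% of all genes). The number lower was 2 without palbociclib replicate 1 and 0 without any of the other 5 libraries, and the adjusted p-value of BOP1 was 0.0587, 0.0554, and 0.131 without alisertib replicate 1, 2, or 3 and 0.0895 and 0.112 without palbociclib replicate 2 or 3.

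The difference between FASTIS and the other TIS groups was tested in a contrast added after the data were seen, with the 6 libraries of ND-646 and TVB-3166 against the 12 of the other 4 drugs in a fit of all 24 libraries. Its error was the spread between libraries within a group, so that its p-values do not measure the spread between drugs. In this contrast 29 members were lower and 0 were higher, against 24.7% of all genes lower and 26.3% higher, and the median log2 difference was -0.35. For 12 members all FASTIS libraries were below all libraries of the other drugs (3.43% of all genes). MYC differed most, by -1.02 ± 0.10 (adjusted p = 4.09e-08), with means of 93.6 CPM in FASTIS and 191 CPM in the other TIS libraries. The next were LYAR (-0.71 ± 0.06), NOLC1 (-0.64 ± 0.06), POLR1B (-0.63 ± 0.09), NOP56 (-0.62 ± 0.07), and POLR1A (-0.59 ± 0.11). FBL (0.02), GNL3 (0.02), NOB1 (0.07), and NPM1 (0.12) did not pass the test and had the highest values. Without ND-646 replicate 1, 35 members were lower (25.4% of all genes), MYC differed by -1.03, and FBL was among the lower genes at -0.16 (adjusted p = 0.0291). Without each of the 18 libraries in turn, the number lower was 27 to 35.

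**Figure D5:**
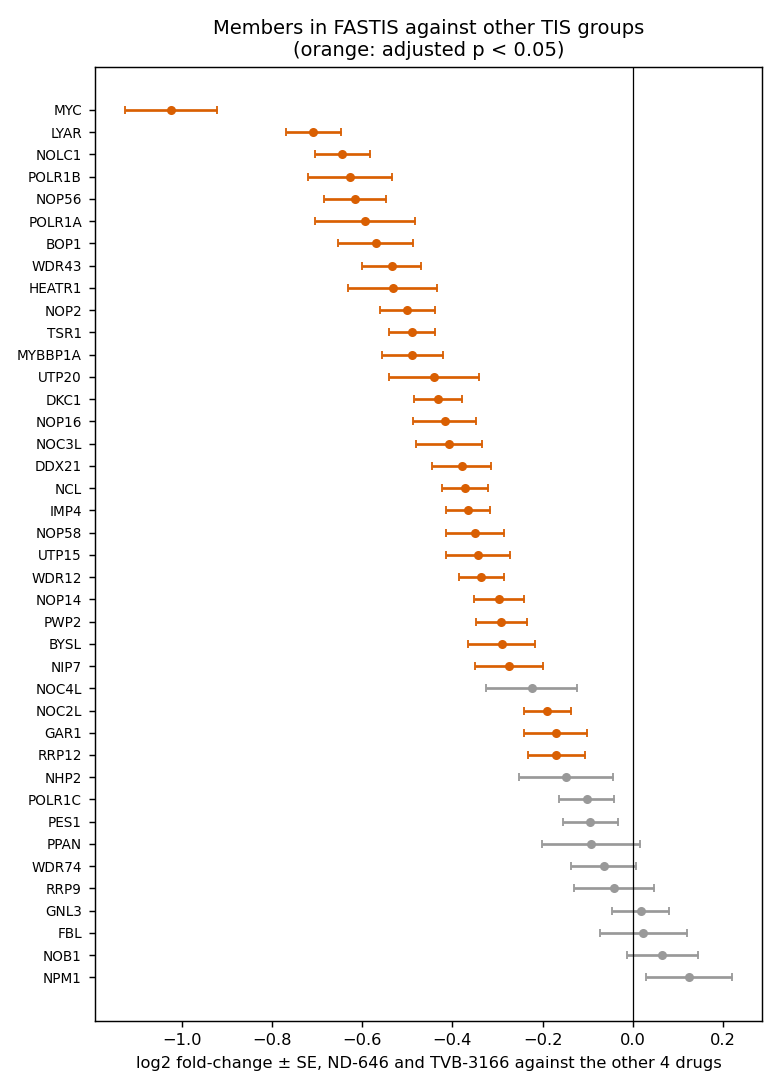
Log2 fold-change ± SE of each member (y-axis) in the 6 FASTIS libraries against the 12 libraries of the other 4 drugs (x-axis), in orange for an adjusted p-value under 0.05 and in gray otherwise. MYC is lowest at -1.02, 29 members are orange and on the lower side, and NPM1 is highest at 0.12.

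Further lists of ribosome assembly are given against day-0, where 18.8% of all genes were lower with ND-646, 27.7% with TVB-3166, 25.3% with bleomycin, 24.8% with doxorubicin, 27.2% with palbociclib, and 19.6% with alisertib. Of 42 further small-subunit factors, 31 were lower and 1 higher with TVB-3166 against day-0, 21 and 0 with ND-646, and 16 to 21 were lower in the other 4 groups, with medians from -0.45 with TVB-3166 and -0.48 with ND-646 to -0.16 with doxorubicin. DDX49, an RNA helicase, fell in all 6 groups, by 0.64 to 0.87. Of 49 further large-subunit factors, 34 were lower with TVB-3166, 22 with ND-646, 23 with alisertib, 20 with palbociclib, 18 with bleomycin, and 15 with doxorubicin. EBNA1BP2, a nucleolar assembly factor, fell in all 6 groups by 0.63 to 0.96, whereas NOP53 rose with ND-646 (1.06) and bleomycin (0.78). Among 13 genes of snoRNP assembly, 9 were lower with TVB-3166, bleomycin, and palbociclib each, 7 with ND-646, 6 with doxorubicin, and 5 with alisertib, and 0 were higher. RUVBL2, an ATPase of the assembly complex, fell in every group, by 0.54 to 0.85. Of 18 genes of the RNA exosome and related nucleases, 8 to 12 were lower in each group.

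The MYC network was called in both directions, with shares of lower genes near those of all genes in several groups. Of 16 network genes, 15 were listed, and the numbers lower and higher against day-0 were 3 and 4 with ND-646, 4 and 6 with TVB-3166, 3 and 6 with bleomycin, 3 and 7 with doxorubicin, 3 and 8 with palbociclib, and 1 and 1 with alisertib, against 18.8% and 19.1%, 27.7% and 27.4%, 25.3% and 24.1%, 24.8% and 23.7%, 27.2% and 26%, and 19.6% and 17.7% of all genes. MYCL, a paralog of MYC, rose in 5 groups, from 0.96 with doxorubicin to 2.13 with ND-646 (adjusted p = 0.000207). Its levels were low, with means of 1.8 CPM at day-0 and 7.8 CPM with ND-646. The antagonist MXI1, which competes for MAX, rose with ND-646 (0.86), TVB-3166 (0.79), bleomycin (1.01), and palbociclib (0.94), and MNT, another antagonist, rose in 5 groups by 0.31 to 0.56. MXD3, of the same family, fell in 5 groups by 0.94 to 2.04, from a mean of 6.1 CPM at day-0. MXD1 rose with bleomycin (0.79), doxorubicin (0.78), and palbociclib (0.67). It was not called with ND-646 (-0.08), TVB-3166 (0.23), or alisertib (0.32). MXD4 was lower with ND-646, bleomycin, and doxorubicin and higher with palbociclib. MYCBP, also of the network, was lower in all 6 groups, by 0.26 to 1.34. Against day-7 cells, MNT was called in 0 groups. MXI1 was called higher with TVB-3166, bleomycin, and palbociclib and not with ND-646 (adjusted p = 0.0624). MYCL was called in 4 groups and not with doxorubicin (adjusted p = 0.110), and MXD3 was lower in the same 5 groups as against day-0. MXD1 was called higher with every drug other than ND-646 (adjusted p = 0.842). MXD4 was lower with bleomycin and higher with palbociclib, and MYCBP was not called with palbociclib or alisertib.

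The ribosomal protein genes, which encode the structural part of the ribosome, followed another order across the drugs. Of 56 cytosolic ribosomal protein genes, 53 were lower against day-0 with doxorubicin (median -0.53), 40 with alisertib (-0.36), 26 with palbociclib (-0.29), 13 with TVB-3166 (-0.19), and 4 with bleomycin (-0.03), and 0 were lower and 2 higher with ND-646 (0.51). The shares of all genes lower were 24.8%, 19.6%, 27.2%, 27.7%, 25.3%, and 18.8%, in the same order. Without ND-646 replicate 1, the ND-646 median was 0.06. Against day-7, 5 were lower and 1 higher with TVB-3166 (median -0.01), against 26.1% and 25.4% of all genes. In FASTIS against the other 4 drugs, 51 of the 56 were higher (median 0.46), against 26.3% of all genes, while 29 members were lower (24.7%). Without ND-646 replicate 1, 34 of the 56 were higher (median 0.22). Genes of proliferation had lower medians than the members in every TIS group. All 18 were lower with each drug other than alisertib, where 14 were, with medians against day-0 of -2.52 with ND-646, -1.71 with TVB-3166, -0.42 with alisertib, and between -1.75 (bleomycin) and -0.81 (doxorubicin) with the others. The part of reduced proliferation in the lower levels of the members was not tested.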

How the data were processed

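RNA of 24 SKBR3 libraries was sequenced. The authors aligned reads to GRCh37 with HISAT2, quantified expression with StringTie, and deposited a table of unnormalized whole-number counts by gene. The counting settings, strand use included, are not given in the sources used here, and the labels and the methods differ on whether the stranded kit took mRNA or total RNA. Groups were taken from the labels. In 16 comparisons, the 6 libraries of a pair of groups were tested with edgeR 4.0.16 (R 4.3.3; filterByExpr, TMM factors, quasi-likelihood F-test, 2-sided, Benjamini-Hochberg adjustment over all 13604 to 13862 genes tested), and a gene was called at an adjusted p-value under 0.05. SEs were derived from the fold-change and its F statistic. Library totals were 29405121 to 44316330 counts, and the lowest count in the table was 1. The scripts were tested on simulated data.

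MYC, genes called higher in 2 or more groups, and, in each functional set, the members with the lowest and the highest log2 fold-change averaged over the 6 drugs are given in every library. Members and lists were chosen with earlier results of these data known. Same-numbered libraries deviated together (every correlation above 0.1 over 12128 genes) in 8 of 16 comparisons, where the replicate number was accepted as a block. These were untreated day-7 and alisertib against day-0, ND-646, bleomycin, doxorubicin, and alisertib against day-7, TVB-3166 against ND-646, and palbociclib against alisertib. Alternatives were DESeq2 1.42.0, other scaling factors and filters, a fit of all 24 libraries, the block, a fold threshold, and each library left out. Promoter windows came from RefSeq, and the stretches printed were matched to GRCh37.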

Additional observations from a re-analysis of the deposited data

How the results depend on the processing

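The numbers of lower members moved with scaling, the fold threshold, and single libraries. RLE size factors, no filter, and a minimum of 10 counts left all 17 counts within 1.5 times. A fold of at least 2 with a raw p-value under 0.05 left 4, 4, and 2 lower members against day-0 with ND-646, TVB-3166, and bleomycin and 0 with the other 3 drugs, 3 and 3 against day-7 with ND-646 and TVB-3166 and 0 with the others, 0 for bleomycin against doxorubicin and palbociclib against alisertib, and 1 for FASTIS against the other 4 drugs. Scaling by library totals, which moved the median of all genes by over 0.1 in 8 of 16 comparisons (-0.22 to 0.14), gave 12, 13, and 11 lower members against day-0 with doxorubicin, palbociclib, and alisertib, and 10 for bleomycin against doxorubicin. Under library totals, the shares of all genes lower were 17.9%, 19.4%, 10%, and 11.2%, in the same order. With TMM factors they were 24.8%, 27.2%, 19.6%, and 5.53%. The share of all genes thus fell along with the members for these 3 drugs, and rose along with them for bleomycin against doxorubicin. Upper-quartile factors gave 12 with doxorubicin against day-0 (20.7% of all genes). DESeq2 gave 1 for untreated day-7 against day-0. A fit of all 24 libraries gave 1 for untreated day-7 against day-0, 6 for alisertib against day-7, 1 for TVB-3166 against ND-646, and 0 for palbociclib against alisertib. The replicate block gave 1 for untreated day-7 against day-0 and 4 for palbociclib against alisertib, and left the other 15 counts of lower members within 1.5 times. The cause of these shifts was not tested.

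With each library left out in turn, lower members against day-0 numbered 16 to 36 with ND-646, 12 to 16 with doxorubicin, and 15 to 25 with alisertib. Against day-7 they numbered 18 to 36 with ND-646, 14 to 23 with bleomycin, 9 to 14 with doxorubicin, and 5 to 17 with alisertib. They numbered 0 to 3 for bleomycin against doxorubicin and 0 to 2 for palbociclib against alisertib. Except for the fits without ND-646 replicate 1, the shares of all genes called in these fits are not given. A change in these numbers therefore cannot be set against the change over all genes. Members lower in all 6 groups against day-7 numbered 8 by DESeq2 (4.15% of 13784 genes). Of 3237 values of named members under the alternatives, 3064 kept their side of the threshold with no reversal of a call (89 of these, not called in either fit, differed in sign), 107 lost a call, 65 gained one, and 1 reversed. This was FBL in FASTIS against the other 4 drugs, at 0.02 with all libraries, -0.16 without ND-646 replicate 1, and up to 0.11 without another library.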

Other observations

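Other growth genes linked to MYC were mostly lower in TIS cells. Of 30 such genes, 29 were listed, and against untreated day-0 cells 26 were lower with TVB-3166, 24 with bleomycin, 21 with doxorubicin, 20 with palbociclib, 18 with alisertib, and 17 with ND-646. The shares of all genes lower were 27.7%, 25.3%, 24.8%, 27.2%, 19.6%, and 18.8%, in the same order. LDHA, which encodes a subunit of lactate dehydrogenase, fell by 0.99 (TVB-3166) to 1.55 (palbociclib), and NME1, a nucleoside diphosphate kinase, by 0.77 (alisertib) to 1.60 (bleomycin). SLC7A5, a subunit of an amino acid transporter, rose in all 6 groups, by 0.58 (TVB-3166) to 1.56 (ND-646).

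Among 17 further genes of RNA polymerase I transcription, 4 were lower and 2 higher with ND-646, 10 and 2 with TVB-3166, 8 and 3 with bleomycin, 7 and 1 with doxorubicin, 10 and 2 with palbociclib, and 9 and 1 with alisertib, against 18.8% to 27.7% of all genes lower and 17.7% to 27.4% higher. TAF1D, a subunit of the promoter selectivity factor of RNA polymerase I, rose in all 6 groups, by 0.46 (alisertib) to 0.83 (palbociclib). POLR2L, which the nuclear RNA polymerases share, fell in 5 groups, by 0.84 (TVB-3166) to 1.75 (bleomycin), and was at -0.75 with ND-646 (adjusted p = 0.083).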
